A study of Arabidopsis thaliana with 2 samples.

Results

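Tightly clumped SNPs are the listed positions with another listed SNP within 100 bp on each side, and 2271 of the 40612 positions in the deposited list met this rule (5.59%, exact binomial 95% interval 5.37 to 5.82). The rule was applied to the positions of each of the 5 chromosomes of Arabidopsis thaliana in sorted order. A clump was taken as a run of at least 3 listed SNPs in which each step to the next SNP was at most 100 bp, so the first and last SNP of a run are not themselves clumped SNPs. The members were chosen by the listed positions themselves, through the distances between neighbours, and their number, spacing and size are therefore a description with no test. At the edge of the rule, the farther of the 2 neighbours lay 91 to 100 bp away for 195 SNPs, which were kept, and over 100 but at most 110 bp away for 172, which were not.

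The series set out to map potent, a dominant mutation from a screen for plants with impaired lateral roots. The mutagenized seeds came from a Col-0 line with the reporters DR5::Luciferase, pWOX5::ER-YFP and pSCR::ER-GFP, and were treated with 50 mM ethyl methanesulfonate (EMS) for 12 hours. The mutant was kept heterozygous through 6 crosses to this parental line and then crossed 5 times to the ecotype Landsberg erecta (Ler). Genomic DNA was sequenced from 1 pool of seedlings with the potent phenotype and 1 pool without it, both taken from about 200 seeds of the fifth cross to Ler and both labelled with the ecotype Ler. The 1 list used here is described by its title as homozygous SNPs. Its title also carries the abbreviation MT, which the sources used here do not define. No column of the list names a pool, so no comparison between the phenotypes was made. The list gives no allele, quality or read depth, and the depth behind each position is unknown. A difference between Col-0 and Ler therefore cannot be told apart from a change made by EMS at any listed position.

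Differences between inbred Arabidopsis ecotypes are unevenly spread along a chromosome, and neighbouring differences are inherited together as haplotypes. Pericentromeres, the regions on either side of a centromere, are rich in transposable elements and pseudogenes and poor in active genes, and crossing over is rare there. Coding sequence is read in steps of 3 bases, and a change at the last base of a codon often leaves the amino acid as it was.

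Chromosome 5 held 719 clumped SNPs, the most of the 5 chromosomes, and chromosome 3 held the highest share. On chromosome 3, 648 of 9938 listed SNPs were clumped (6.52%, 6.04 to 7.02). The share was 6.21% on chromosome 5 (5.78 to 6.67), 5.81% on chromosome 4 with 422 clumped SNPs (5.28 to 6.37), and 5.54% on chromosome 1 with 278 (4.92 to 6.21). Chromosome 2 stood below the other 4, with 204 clumped of 6812 listed SNPs, a share of 2.99% (2.6 to 3.43) that did not overlap the interval of any other chromosome. In the order from chromosome 3 through 5 and 4 to 1, each neighbour's interval overlapped the next. These intervals and all others below are 95% intervals that cover counting error only, and SNPs of 1 clump share their source. Chromosome 2 thus held 16.8% of all listed SNPs but 8.98% of the clumped ones, whereas chromosome 3 held 24.5% of the listed and 28.5% of the clumped.

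The list held 1555 clumps, and most were of the smallest size the rule allows. Of them, 1088 (70%, 67.6 to 72.2) held 3 SNPs, 313 held 4, 87 held 5, 48 held 6, 12 held 7, 5 held 8 and 2 held 9. No clump exceeded 9 SNPs. The median clump spanned 67 bp, with quartiles of 38 and 105 bp and a longest span of 351 bp. Together the clumps covered 120 kb, or 0.101% of the length of the chromosomes up to their last listed SNPs, and with their end SNPs held 5381 listed SNPs, or 13.2% of the list. Clumps of 5 or more SNPs made up 12.5% of the 417 clumps of chromosome 3 (9.46 to 16), 9.4% of the 500 on chromosome 5, 8.97% of the 290 on chromosome 4, 8.42% of the 202 on chromosome 1 and 8.22% of the 146 on chromosome 2. The 5 intervals overlapped, so the chromosomes differed in how many clumps they held more clearly than in how large the clumps were.

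**Figure D1:**
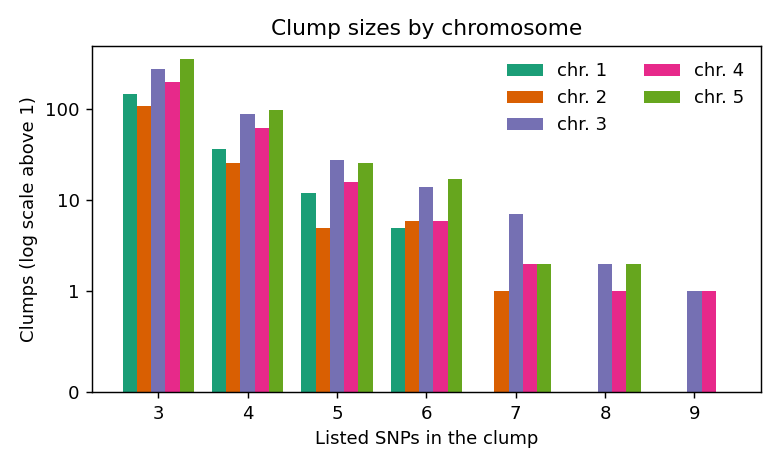
Number of clumps (vertical axis, log scale above 1) by the number of listed SNPs in the clump (horizontal axis), with 1 bar for each chromosome. Clumps of 3 SNPs number 355 on chromosome 5 and 108 on chromosome 2, and the 2 clumps of 9 lie on chromosomes 3 and 4.

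Both clumps of 9 SNPs lay on chromosome arms. The more compact one, at chr4:1288400-1288672 (TAIR10), spanned 273 bp and ran across an end of the protein-coding gene AT4G02910. Its successive steps were 45, 20, 95, 26, 26, 19, 24 and 17 bp, so no SNP pair was adjacent. The other, at chr3:8121577-8121906, spanned 330 bp outside every annotated gene and held 2 pairs of SNPs 1 bp apart among steps of 19 to 83 bp. Of the 5 clumps of 8 SNPs, the most compact lay at chr5:10053852-10053984, spanning 133 bp of the pseudogene AT5G28053 just inside the edge of the pericentromere. The clump of 8 at chr3:5436241-5436516 lay in the protein-coding gene AT3G16010, and the remaining ones, at chr5:503162-503353, chr4:4686169-4686401 and chr3:9212024-9212374, lay outside annotated genes. Among clumps of 5 or more SNPs the densest was at chr4:4604562-4604606, in the pericentromere and outside annotated genes, with 5 SNPs in 45 bp. The clump of 7 SNPs at chr3:2706998-2707080, in AT3G08890, packed 8.43 SNPs per 100 bp.

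Inside clumps the median step between neighbours was 22 bp (quartiles 9 and 47 bp), and 1118 of the 3826 steps (29.2%) were of 10 bp or less. Steps of 1 bp, in which adjacent bases are listed as separate SNPs, numbered 186. The whole list held 702 such adjacent pairs, so 26.5% of them lay in clumps. Adjacent bases nearly always came as pairs: the list held 696 runs of 2 consecutive positions and 3 runs of 3, of which 2 lay on chromosome 5 and 1 on chromosome 3. These 3 runs were the shortest clumps, at 3 bp. An adjacent pair was present in 181 clumps (11.6%, 10.1 to 13.3).

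Many clumps lay near another clump. Another clump began or ended within 1 kb of 260 clumps (16.7%) and within 10 kb of 947 (60.9%). Of all 40612 listed SNPs, only 704 had no listed neighbour within 10 kb. Whether clumps lie closer together than the density of listed SNPs alone would give was not tested. The longest strings joined by gaps of at most 1 kb held 4 clumps each. One lay at chr2:3140210-3142515 outside annotated genes with 13 SNPs in its clumps, and one at chr5:13642451-13644208 in the pseudogene AT5G35413 with 15. At the other extreme, no clump lay between positions 4896532 and 14157970 of chromosome 1, a stretch of 9.26 Mb with 253 listed SNPs. On chromosome 3 a stretch of 5.62 Mb from 10850477 to 16466850 held 380 listed SNPs and no clump. The longest such stretches were 2.07 Mb on chromosome 4, 1.24 Mb on chromosome 2 and 0.69 Mb on chromosome 5.

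Clumped SNPs were unevenly spread along the chromosomes. Of 240 windows of 500 kb, 152 held at least 1 and the median window held 2.5, and the 10 windows with the most, picked for that count, held 25% of the clumped and 14% of the listed SNPs. The window from 13500001 to 14000000 of chromosome 5, in the pericentromere, held the most, 73 clumped among 580 listed SNPs (12.6%). It was followed by a window on the long arm of chromosome 1, from 24500001 to 25000000, with 69 of 651 (10.6%), and by the window from 9000001 to 9500000 of chromosome 3, with 67 of 627 (10.7%). The sparse parts of the list held almost no clumped SNPs: 4 of 564 listed SNPs in the first 21 Mb of chromosome 1 (0.709%, 0.194 to 1.81), 4 of 614 between 10 and 17 Mb of chromosome 3 (0.651%), 2 of 426 beyond 10 Mb of chromosome 4 (0.469%) and 2 of 350 beyond 18 Mb of chromosome 5 (0.571%). In the first 10 Mb of chromosome 3, by contrast, 558 of 7106 listed SNPs were clumped (7.85%, 7.24 to 8.5), which was 86.1% of the clumped and 71.5% of the listed SNPs of that chromosome. The bounds of these stretches had been chosen with the densities of the list known.

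**Figure D2:**
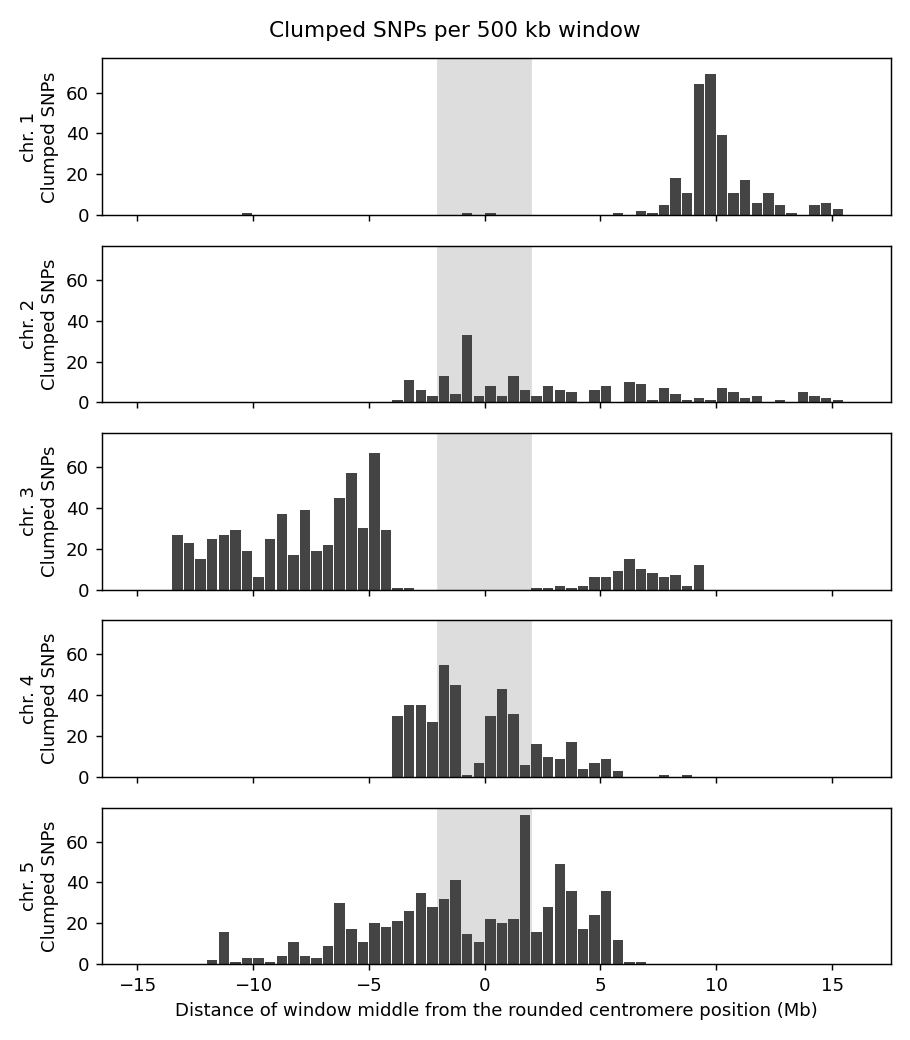
Clumped SNPs in each 500 kb window (vertical axis) by the distance in Mb of the window's middle from the rounded centromere position (horizontal axis), with 1 panel for each chromosome and the pericentromere shaded. The tallest bar, 73, stands in the pericentromere of chromosome 5, while that of chromosome 3 is empty and that of chromosome 1 holds 2.

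Pericentromeres, taken as 2 Mb either side of rounded centromere positions at 15, 4, 14, 4 and 12 Mb, held 539 of the clumped SNPs (23.7%) and 21.2% of the listed SNPs. Over the 5 chromosomes 6.25% of pericentromeric SNPs (5.75 to 6.78) and 5.42% of SNPs on the arms (5.17 to 5.67) were clumped, a difference of 0.832 percentage points (Newcombe interval 0.279 to 1.42). The difference depended on how wide a pericentromere was taken: both parts stood at 5.59% with 1 Mb either side, and at 5.81% (5.41 to 6.23) and 5.49% (5.22 to 5.76) with 3 Mb. The chromosomes did not share this direction. On chromosome 5 the share was 7.22% in the pericentromere (6.36 to 8.16) and 5.81% on the arms, on chromosome 4 it was 6.86% (6.01 to 7.8) against 4.99%, and on chromosome 2 it was 4.38% (3.51 to 5.4) against 2.46%. Single windows of 500 kb weighed on 2 of these values. On chromosome 2, 1 window held 33 of the 83 clumped SNPs of the pericentromere, among 207 of its 1894 listed SNPs. On chromosome 5 the window from 13500001 to 14000000 held 73 of 236, among 580 of 3269 listed. The intervals do not allow for this. The pericentromere of chromosome 3 held 0 clumped SNPs among 213 listed, which allows a share of up to 1.72% by the exact interval, while its arms held 6.66%. On chromosome 1 the pericentromere held 2 clumped among 76 listed SNPs, too few to set apart from the 5.58% of the arms (difference -2.95 points, -4.97 to 3.54).

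**Figure D3:**
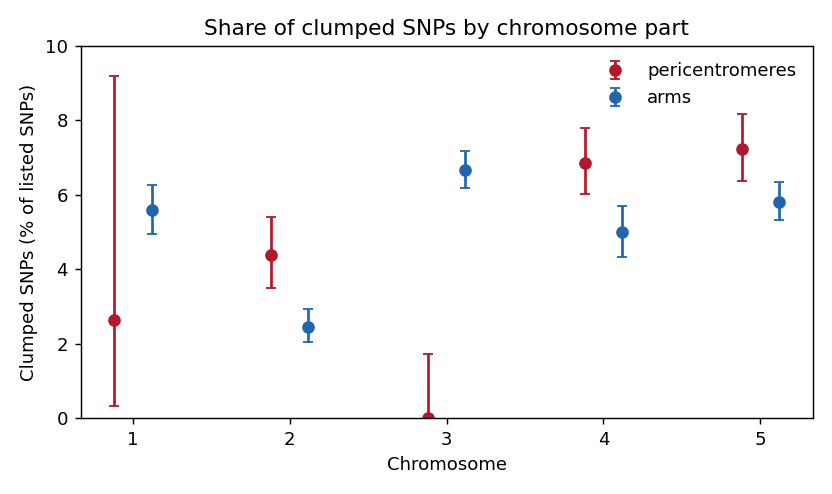
Share of listed SNPs that are clumped (vertical axis, %) in the pericentromere and on the arms of each chromosome, with exact binomial 95% intervals. The pericentromeric point stands above that of the arms on chromosomes 2, 4 and 5 and below it on chromosomes 1 and 3, where 76 and 213 SNPs are listed.

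The density of listed SNPs moved with this contrast. The pericentromeres of chromosomes 2, 4 and 5 held 474, 794 and 817 listed SNPs per Mb, and those of chromosomes 1 and 3 held 19 and 53.2. Where SNPs are denser, more of them have neighbours within 100 bp by the construction of the rule. The clumped share rose from 0.589% in windows of 1 to 49 listed SNPs to 1.79%, 3.05%, 4.45%, 7.03% and 7.95% in windows of 50 to 99, 100 to 199, 200 to 299, 300 to 399 and 400 to 679. Across the 239 windows with a listed SNP the correlation of the share with the number listed was 0.68 (Pearson) and 0.81 (Spearman), a description, since neighbouring windows are linked and the number listed enters both measures. Between windows of like density, from 200 listed SNPs upward, the pericentromeres and arms lay close together. At 200 to 299 listed SNPs the shares were 4.38% and 4.48% (difference -0.107 points, -1.02 to 0.897), at 300 to 399 they were 6.83% and 7.11% (-0.282 points, -1.5 to 1.04), and at 400 to 679 they were 8.19% and 7.87% (0.32 points, -0.714 to 1.42). The value at 200 to 299 leaned on 1 window of chromosome 2, which held 33 of the 108 pericentromeric clumped SNPs among 207 of 2468 listed. In the sparser classes the shares were 0.866% and 0.539% at 1 to 49, 0% and 1.86% at 50 to 99, and 2.28% and 3.09% at 100 to 199. In each of the 6 density classes the interval of the difference included 0. By counting error alone, these intervals leave room for differences of about a percentage point in the denser classes and more in the sparser ones. They treat SNPs of 1 clump as independent, and pericentromeres had 10, 6 and 6 windows in the classes from 200 to 299 upward. The intervals therefore do not bound the difference.

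**Figure D4:**
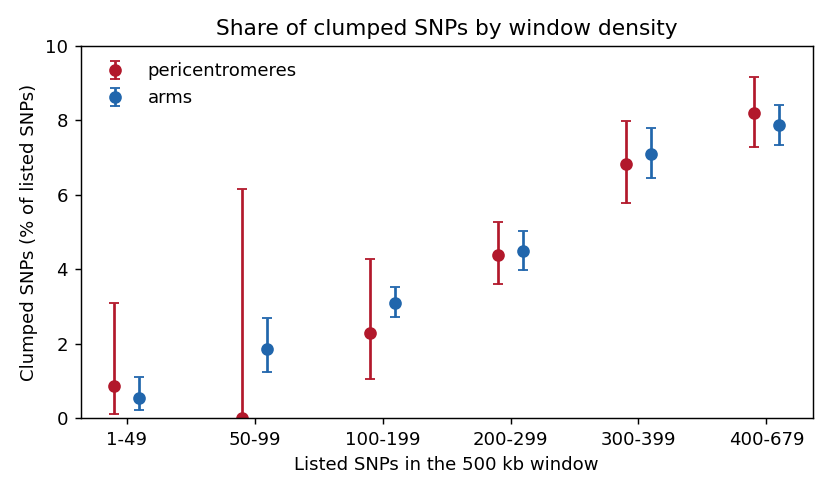
Share of listed SNPs that are clumped (vertical axis, %) by the number of listed SNPs in the 500 kb window (horizontal axis), for pericentromeric windows and windows of the arms, with exact binomial 95% intervals. Both series stand under 1% in the sparsest class and reach 8.19% and 7.87% in the densest. The pericentromeric point is at 0% at 50 to 99, where it rests on 1 window with 58 listed SNPs. At 100 to 199 it rests on 2 windows.

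The chromosomes differed also at like density. Chromosome 2, whose windows held at most 300 listed SNPs, had a clumped share of 2.47% (1.99 to 3.03) in its 22 windows of 100 to 199 listed SNPs, where chromosome 5 had 4.52% (3.44 to 5.82) chromosome 1 had 3.45% (2.44 to 4.73), chromosome 3 had 3.03% (2.16 to 4.12) and chromosome 4 had 2.6% (1.26 to 4.74). In this class the interval of chromosome 2 was apart from that of chromosome 5 and overlapped the other 3. At 200 to 299 listed SNPs the shares were 3.64% on chromosome 2 (2.95 to 4.45) and 3.66% on chromosome 4 (2.89 to 4.55), both below the interval of chromosome 3, at 5.91% (4.83 to 7.16). The order changed between classes. At 300 to 399 chromosome 4 stood highest, at 9.36% (7.7 to 11.2) in 3 windows. Its interval was apart from that of chromosome 5, at 6.21% (5.35 to 7.17) in 8 windows. These intervals do not cover the spread between windows. In the densest class chromosome 1 stood highest, with 172 of 1746 SNPs clumped in 3 windows (9.85%, 8.49 to 11.3), and chromosome 4 lowest, with 7.17% (6.3 to 8.12). Clumps in pericentromeres and on arms were alike in size: 10.5% (7.56 to 14.2) and 9.72% (8.09 to 11.5) held 5 or more SNPs, and the median span was 67 bp in both.

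Among listed SNPs, nearly equal proportions were clumped in protein-coding genes and outside genes. This comparison uses the gene spans of the RefSeq annotation of TAIR10.1, which the rule did not use. Inside protein-coding genes 1029 of 18028 listed SNPs were clumped (5.71%, 5.37 to 6.06) and outside every annotated gene 1020 of 18146 were (5.62%, 5.29 to 5.97), a difference of 0.0867 percentage points (-0.39 to 0.564). Pseudogenes, which in this annotation include many remains of transposons, held 200 clumped of 3851 listed SNPs (5.19%, 4.51 to 5.94). In genes for lncRNA, tRNA and other RNA the count was 22 of 587 (3.75%, 2.36 to 5.62). Per Mb of sequence, clumped SNPs were sparser in protein-coding genes, at 16, than in pseudogenes, at 19.3, and outside genes, at 23.9, and all listed SNPs followed the same order at 280, 372 and 425. The 704 isolated SNPs, with no listed neighbour within 10 kb, lay in protein-coding genes in 40.3% of cases over the genome, against 45.3% of clumped SNPs, but the chromosomes did not share a direction. Isolated SNPs had the lower share on chromosome 1 (41.5% against 56.1%) and chromosome 3 (22.8% against 60.6%), and the higher one on chromosome 2 (45.6% against 41.2%), chromosome 4 (44.4% against 34.4%) and chromosome 5 (47.3% against 34.9%).

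The balance of genes and other sequence was not the same on every chromosome. On chromosome 3, 7.35% of SNPs in protein-coding genes and 5.88% of SNPs outside genes were clumped (difference 1.47 points, 0.459 to 2.46). On chromosome 5 the order was the opposite, 5.63% and 6.62% (-0.993 points, -1.93 to -0.0439). Chromosomes 1, 2 and 4 had intervals that included 0. Where clumped SNPs lay outside genes, their median distance to the nearest gene was 578 bp (quartiles 240 and 1277 bp), against 522 bp (213 and 1119) for other listed SNPs. Within protein-coding genes the median distance to the nearer gene end was 558 bp for clumped and 552 bp for other listed SNPs. Of the 1555 clumps, 1497 (96.3%) lay whole inside 1 kind of annotation, with 683 in protein-coding genes, 678 outside genes, 124 in pseudogenes and 12 in RNA genes.

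Steps between the SNPs of a clump fell on multiples of 3 bp more often inside protein-coding genes than outside genes. Within protein-coding genes 687 of 1712 steps were divisible by 3 (40.1%, 37.8 to 42.5), against 31.2% that left a remainder of 1 and 28.7% that left 2. Outside annotated genes 567 of 1697 steps were divisible by 3 (33.4%, 31.2 to 35.7), close to the 33.3% of all whole numbers. The difference was 6.72 percentage points (Newcombe interval 3.48 to 9.93). The share was higher inside genes than outside on each of the 5 chromosomes: 42.8% and 29.5% on chromosome 1, 46.3% and 33.8% on chromosome 2, 37% and 32.9% on chromosome 3, 40.3% and 31.8% on chromosome 4, and 40.9% and 35.8% on chromosome 5. The intervals inside and outside genes were apart on chromosome 1 and overlapped on the other 4. Among steps in genes of 2 to 10 bp, the counts were 46, 67, 46, 52, 60, 49, 40, 56 and 36 in order of distance, with the 3 highest at 3, 6 and 9 bp. Steps of 12 bp numbered 38 and steps of 15 bp 52. Steps of 1 bp were the most frequent both in genes, with 85, and outside them, with 83.

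**Figure D5:**
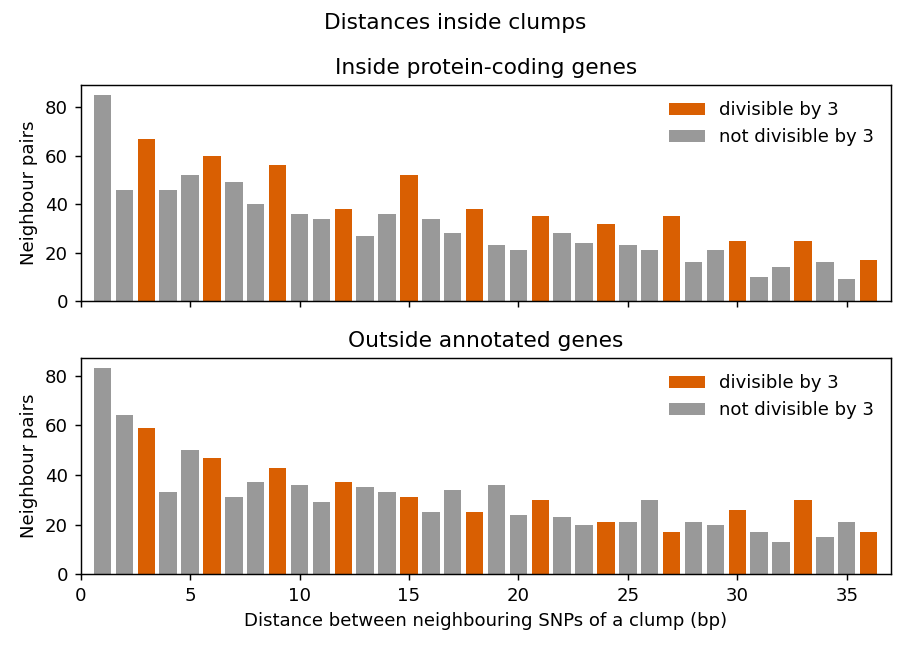
Number of neighbouring SNP pairs in clumps (vertical axis) by their distance up to 36 bp (horizontal axis), inside protein-coding genes (top) and outside annotated genes (bottom), with distances divisible by 3 in orange. Inside genes the bar at every multiple of 3 bp from 3 to 33 bp stands above its neighbours at either side. Outside genes those at 9, 12, 21, 30 and 33 bp do, while those at 3, 6, 15, 18, 24 and 27 bp do not.

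Pseudogenes lay between, with 124 of 324 steps divisible by 3 (38.3%, 33 to 43.8), and their difference from sequence outside genes, 4.86 points, had an interval that included 0 (-0.75 to 10.7). Pairs of SNPs 2 to 100 bp apart that were not part of a clump had the same direction: 38.3% of 1855 such pairs were divisible by 3 in protein-coding genes (36.1 to 40.5) and 34.1% of 2004 outside genes (32.1 to 36.3), a difference of 4.14 points (1.11 to 7.17). Over the same range of distances the steps inside clumps gave 42.2% in genes (39.8 to 44.7) and 35.1% outside them (32.8 to 37.5). Within protein-coding genes, steps in clumps thus exceeded pairs outside clumps by 3.95 points (0.687 to 7.21). The rule sorted the 2 sets by distance, and they were not matched for distance within the range. The comparison was also chosen after seeing the data, so this difference is a description and sets no trait of clumps apart. Gene spans here include introns and untranslated exons, and coding exons and codon positions were not analysed here. The SNPs of a clump share their steps' ends, so steps are not independent.

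At least 1 clumped SNP lay in 628 of 27444 protein-coding genes (2.29%). Among the 2163 genes with 3 or more listed SNPs, 619 (28.6%) had one, and the few remaining genes held part of a clump that crossed their ends. The share was 3.9% of genes on chromosome 3, 2.56% on chromosome 5, 2.25% on chromosome 4, 1.4% on chromosome 1 and 1.37% on chromosome 2. Of the 628 genes, 392 held 1 clumped SNP, 148 held 2 and 88 held 3 or more. Their median length was 2421 bp, not above the 2958 bp of the 1544 genes that held 3 or more listed SNPs and none clumped, and their median number of listed SNPs was 6 against 4. Pseudogenes held a clumped SNP in 115 of 4843 cases (2.37%), and lncRNA genes in 16 of 3480 (0.46%).

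The 15 protein-coding genes with the most clumped SNPs lay on chromosome 3 in 13 cases, with 1 each on chromosomes 1 and 4. The cut at 15 ran through a tie: 21 genes held 5 or more, and genes tied at 5 were taken in order of locus identifier. That order puts chromosomes of lower number first. On chromosome 5 the most in any gene was 5, and its genes were left out by the tie order. The counts by chromosome among the 15 therefore depend in part on this order. Chromosome 3 held 213 of all 628 protein-coding genes with a clumped SNP. It held 393 of the 1029 clumped SNPs in protein-coding genes. TOC64-III (AT3G17970), named for the translocon that brings proteins through the outer chloroplast membrane, held the most: 10 of its 24 listed SNPs were clumped, in 3 clumps, the largest with 7 SNPs at chr3:6150230-6150359. AT3G08890 held 8 clumped of 16 listed SNPs in 2.21 kb, the highest number per kb of the 15 at 3.61. EDA5 (AT3G03650), named for embryo sac development arrest, held 7 of 14. PIP5K9 (AT3G09920), a kinase that makes phosphatidylinositol bisphosphate, held 6 of 23 spread over 4 clumps, the most clumps of any of the 15. By contrast, the 6 clumped SNPs of AT3G16010 belonged to 1 clump of 8. The mitochondrial RNA helicase gene PMH1 (AT3G22310) held 6 of 15, and AT3G16200, AT3G25510 and AT4G04790 held 6 each.

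The other 6 genes of the 15 held 5 clumped SNPs each, as did further genes left out by the tie order. They were URE (AT1G67550), which encodes urease, the enzyme that splits urea, ENGase85B (AT3G11040), an endoglucosaminidase that cuts sugar chains from glycoproteins, the GDSL lipase gene GLIP4 (AT3G14225), CID9 (AT3G14450), AT3G15940 and MFP1 (AT3G16000), a filament-like protein that binds DNA. In GLIP4, 5 of 7 listed SNPs were clumped (71.4%), all in 1 clump of 7 SNPs at chr3:4734759-4734912. MFP1 and AT3G16010 are neighbours whose annotated spans overlap. The 15 genes together held 91 clumped SNPs, 8.8% of those counted in protein-coding genes. These genes were chosen for their counts, which are a description.

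Outside protein-coding genes the pseudogene AT5G28053, in the pericentromere of chromosome 5, held more clumped SNPs than any gene, 11 of 36 listed SNPs in 4 clumps. The pseudogene AT4G08340 held 5 of 21. AT1G65385, a transcribed pseudogene, and AT2G07230 held 4 each. TAS1A (AT2G27400), a non-coding gene whose transcript is cut into trans-acting small interfering RNAs, held 4 of 7 in 0.93 kb, or 4.3 per kb, in a single clump of 6.

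Gene families were counted from the names in the annotation table, which gives 37.8% of protein-coding genes a symbol of their own, so large families whose members carry only a locus identifier are missing or thinly covered. Against the 2.29% of all protein-coding genes, a clumped SNP lay in 10 of 232 cytochrome P450 genes (4.31%), oxidases of specialised metabolism and hormone turnover. Receptor-like kinases and receptor-like proteins, which sense signals at the cell surface, held one in 7 of 203 genes (3.45%). A listed SNP of any kind lay in 33.6% of the cytochrome P450 genes and 43.8% of the receptor-like genes. The 3 or more listed SNPs that a whole clump needs lay in 20 of the cytochrome P450 genes and 41 of the receptor-like genes. Beside these stand the 10 and 7 genes with a clumped SNP. Over all protein-coding genes 2163 held 3 or more listed SNPs, and 619 of these held a clumped one. Of all 27444 protein-coding genes, 628 held a clumped SNP and a further 7376 held listed SNPs but none clumped. Whether the higher clumped shares follow the listed SNPs was not tested. CYP82G1 held 3 clumped of 7 listed SNPs and CYP77A5P, whose name marks it as a pseudogene although it is annotated as protein-coding, held 2 of 12. CLV2 (AT1G65380), a receptor-like protein that limits the size of the shoot meristem, held 4 of 12 in 1 clump of 6, and RLP52 held 2 of 6. Among MADS-domain transcription factors 3 of 98 had one (3.06%), with 2 of 5 listed SNPs in AGL61, which is needed for the central cell of the ovule, and 1 of 5 in AGL23. UDP-glycosyltransferases had one in 2 of 55, UGT76D1 and UGT88A1.

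In the remaining families the count was 0 or 1. Small secreted cysteine-rich proteins held a clumped SNP in 1 of 115 genes (0.87%), LCR58, with 3 of 8. RING and U-box proteins, which mark other proteins with ubiquitin, held one in 1 of 70 (1.43%), PUB25. Ribosomal proteins held one in 1 of 67 (1.49%), PSRP6 of the plastid. No clumped SNP lay in any of 31 histones, 30 proteasome subunits, 31 genes named as F-box proteins, 12 named pentatricopeptide repeat proteins or 13 resistance genes named RPM1, RPS or RPP. At the background of 2.29%, families of this size would hold few such genes, so these counts are near the background, and no test was run on these counts. Few genes of the lists without a clumped SNP had the 3 or more listed SNPs that a whole clump needs. They were 0 histones, 2 proteasome subunits, 4 F-box proteins, 0 pentatricopeptide repeat proteins and 1 resistance gene. The median number of clumped SNPs per gene was 0 in every list, as it was over all protein-coding genes.

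Of 88 genes of auxin response and root formation, the processes the screen was about, 3 held a clumped SNP (3.41%, against 2.29% of all protein-coding genes), a count too small to read a difference from. Among 29 Aux/IAA repressors 1 gene did, IAA19 (AT3G15540), with 1 clumped of 5 listed SNPs. Among 23 auxin response factors 1 did, NPH4 (AT5G20730, also named ARF7), a regulator of lateral root initiation, with 1 of 12. In the auxin transport list 1 of 15 did: ABCB1, an auxin efflux transporter, with 2 of 7 in 2 clumps of at most 3 SNPs. None of the 6 auxin receptors held a clumped SNP, and 0 of them held a listed SNP. The 15 genes in the lateral root and root meristem list held no clumped SNP either. Of these 15, 8 held a listed SNP, but 0 held the 3 or more that a whole clump needs. That list did not include NPH4, which was counted only with the auxin response factors. With no allele in the list, a clumped SNP in a gene is no sign that the gene was changed in the screen.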

How the data were processed

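The authors deposited 1 table of SNP positions in bp, a chromosome and a position column for each of 5 chromosomes, per the file headers. Per the submitters' processing notes the positions refer to TAIR10, and per the design text of the series the SNPtrack pipeline found the SNPs. Its aligner and thresholds, and what made a site homozygous, are not stated in the sources used here. Filters on depth, quality or mapping can remove neighbouring SNPs and so change what counts as clumped.

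Empty cells, and 5 cells that held no number, were left out. The 100 bp rule, 500 kb windows, exact binomial intervals (Clopper-Pearson) and Newcombe intervals of differences were computed with Python 3.11.15, numpy 2.4.6, pandas 2.3.3 and scipy 1.17.1, and the rule was tested on simulated lists. Genes came from the RefSeq table of TAIR10.1, whose nuclear chromosomes are those of TAIR10; no gene coordinates are printed. A SNP in overlapping annotations was counted as protein-coding first, then pseudogene, then RNA gene. Named genes were the 15 protein-coding genes with the most clumped SNPs, with ties taken by locus identifier, and the 5 other genes with the most. Also named were up to 2 genes per family, every auxin or root list member with a clumped SNP, and genes at the 10 largest clumps. The members and lists were chosen with earlier results of these data known. Reference sequence, codon positions and the copy number of the sequence around a SNP were not used here.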

Additional observations from a re-analysis of the deposited data

How the results depend on the processing

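No paired analysis was possible because the single list is tied to no pool. The clumped share of 5.59% became 3.21% at 50 bp, 10.3% at 200 bp, 37.9% with 1 neighbour within 100 bp, and 5.23% with positions 1 bp apart merged. For the pericentromeres it became 3.57% at 50 bp, 12.3% at 200 bp and 5.59% within 1 Mb, and for the arms 3.11%, 9.78% and 5.59%, so the 2 parts were level with the 1 Mb definition. The arms gave 5.81% in windows with at least 100 listed SNPs, 5.09% with adjacent positions merged and 4.67% on chromosomes 2, 4 and 5 alone. Pericentromeres gave 6.44%, 5.77% and 6.44% there, and the first and last of these are the same 537 of 8339 SNPs. The 1555 clumps became 1005 at 50 bp, 2452 at 200 bp and 154 at 5 or more SNPs. Genes with a clumped SNP stayed within 1.5 times of 628. Outside genes the clumped share was 6.04% in windows with at least 100 listed SNPs, against 6.06% in protein-coding genes. Distances divisible by 3 gave 39% in genes and 33.7% outside over all pairs 4 to 100 bp apart. The comparisons on chromosomes 2, 4 and 5, in dense windows for genes, of all pairs 4 to 100 bp apart, of pairs outside clumps and of genes with merged positions were chosen after seeing the data. Causes of these shifts were not tested beyond what each setting's construction fixes. Alternatives on unique sequence and coding exons were not run.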
